A study of Mus musculus with 6 samples.

Results

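Immediate early genes are the first genes that a cell transcribes after a stimulus, without the need for new protein. Kinases of the MAP kinase and calcium pathways act on factors that already sit at their promoters, among them CREB and the serum response factor with its partners, and the transcripts are short-lived. In the retina the best known triggers are light, synaptic activity, injury and the handling of the tissue. The 10 genes described here were chosen by name (Fos, Fosb, Jun, Junb, Jund, Egr1, Npas4, Arc, Nr4a1 and Btg2), and all 10 were found among the 15465 genes of the tables.

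The material was whole retina of wild-type C57BL6/J mice, the standard inbred laboratory strain. Each of 3 biological replicates was a pool of 5 mice, called pools 1, 2 and 3 here, and both of its technical replicates name the same table, so each pool had 1 column of values. Values are in RPKM, reads scaled to transcript length and library size, a unit inferred from the values. There was 1 group and no contrast, so levels were described and only their spread between pools was tested. The time of day, the light before collection and the time taken by dissection are, in the sources used here, not given, and whether any of them set the levels was not tested.

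RPKM summed to between 249532 and 302634 per pool, and the read depth behind it is unknown. All 16 markers of retinal cell types looked up were present, with medians of 340, 294 and 319 RPKM in pools 1, 2 and 3, and 0 of the 16 were called as varying between pools by the limma test given further on (1 at an unadjusted p under 0.05). Tissue next to the retina was unevenly represented. The summed level of 16 lens genes was 1042, 623 and 2225 RPKM in pools 1, 2 and 3, that of 12 pigment epithelium genes 568, 542 and 311, and that of 10 skeletal muscle genes 17.7, 27.3 and 6.67. Without Myh13, whose row is of a less certain kind described further on, the muscle sum was 9.48, 27.3 and 6.66. Rpe65, a pigment epithelium gene with a row of the same kind, had 6.25, 20.1 and 6.74 RPKM. The pigment epithelium sum without it was 561, 522 and 304. The same test called 10 of 16, 5 of 11 and 4 of 6 tested genes of these lists, beside 5.44% of all genes tested. Without the less certain rows it called 12 of 16, 5 of 10 and 4 of 5, beside 0.936%. With those rows kept, limma's non-robust trended prior called 0 of all genes tested. Of 8 red blood cell markers 4 were among the rows, with Hba-a1 and Hba-a2 listed at 0. Alas2 had 0.42, 0.38 and 0.66 RPKM in pools 1, 2 and 3. Slc4a1, a row of the less certain kind that the test on all genes called, had 3.02, 1.25 and 0.

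Promoters of 8 of the 10 genes, all but Arc and Egr1, were found in RefSeq (GRCm38.p6). They are windows of 250 bases before to 50 bases after the start of the gene. Those of Npas4, Fos and Btg2 are shown because these genes stood at the low end, in the middle and near the top of the levels below. Capitals mark the core of the cyclic AMP response element, TGACG on either strand, which CREB binds. They lie at chr19:4989922-4990221 on the minus strand, chr12:85473640-85473939 on the plus strand and chr1:134079106-134079405 on the minus strand, in that order, and are written 5′ to 3′ along the gene.
Npas4: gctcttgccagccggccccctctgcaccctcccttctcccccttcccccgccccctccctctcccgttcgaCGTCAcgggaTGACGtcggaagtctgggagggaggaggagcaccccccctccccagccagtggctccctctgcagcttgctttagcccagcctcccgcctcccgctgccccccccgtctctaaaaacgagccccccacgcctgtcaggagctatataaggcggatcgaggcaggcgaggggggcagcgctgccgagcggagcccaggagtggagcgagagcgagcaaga
Fos: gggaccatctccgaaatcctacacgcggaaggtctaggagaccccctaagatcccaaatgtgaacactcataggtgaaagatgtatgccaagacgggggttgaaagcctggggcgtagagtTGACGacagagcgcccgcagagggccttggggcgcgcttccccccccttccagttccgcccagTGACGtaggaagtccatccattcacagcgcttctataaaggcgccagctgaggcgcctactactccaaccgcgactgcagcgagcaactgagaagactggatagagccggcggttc
Btg2: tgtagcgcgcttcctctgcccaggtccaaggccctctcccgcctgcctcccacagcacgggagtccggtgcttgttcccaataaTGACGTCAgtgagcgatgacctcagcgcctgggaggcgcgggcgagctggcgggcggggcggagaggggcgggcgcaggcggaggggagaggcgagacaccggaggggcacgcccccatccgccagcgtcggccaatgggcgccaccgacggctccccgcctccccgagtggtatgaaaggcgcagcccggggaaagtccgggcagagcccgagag
The core was found in 6 of the 8 windows (Fos, Fosb, Junb, Nr4a1, Npas4 and Btg2), with 4 matches in that of Nr4a1, and in 20.8% of all 32817 promoter windows. The whole palindrome TGACGTCA, which holds 2 overlapping cores, was in the window of Btg2 alone among the 8, and in 1.79% of all windows. TATAAA was in those of Fos and Junb and in 13.6% of all. Both strands were searched. The CArG box, bound by serum response factor, the AP-1 site TGANTCA and the EGR site GCGTGGGCG were in none of the 8 windows and in 1.63%, 7.81% and 0.612% of all. These are matches of letters and were not tested as binding sites. Bases outside the windows, and the promoters of Arc and Egr1, were not searched, so a motif found in no window may still lie near these genes.

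The 10 genes spanned a factor of 80.8 between the highest and the lowest mean. Of these, 6 had a mean of 10 RPKM or more, as had 37.8% of all genes, and 3 (Npas4, Arc and Fosb) stood near or under 1 RPKM. The median of the 10 was 12.5, 11.6 and 9.65 RPKM in pools 1, 2 and 3, against a median mean of 6.26 RPKM over all genes. These are levels in whole tissue, in which few cells with much RNA and many cells with little cannot be told apart.

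**Figure D1:**
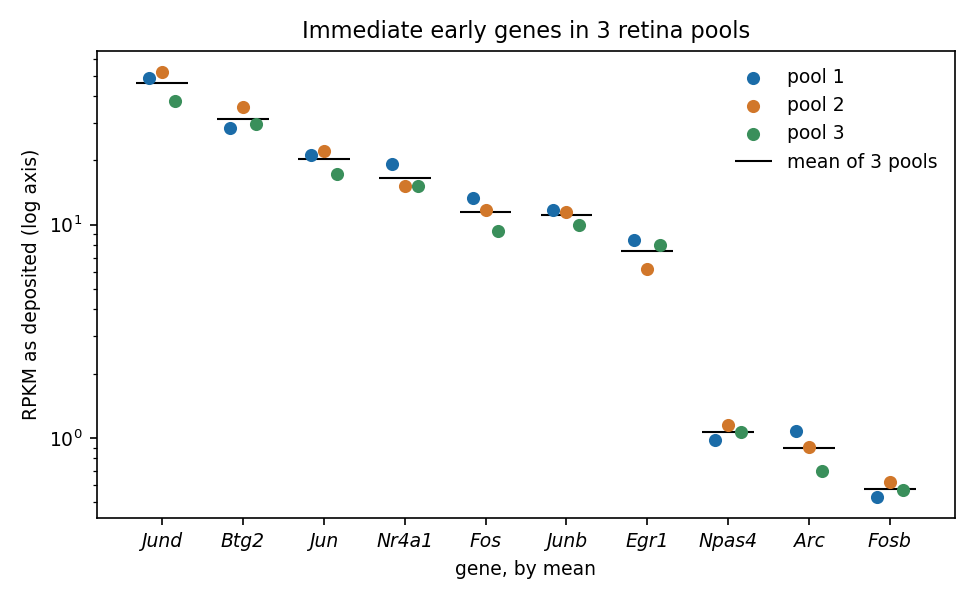
RPKM as deposited (log axis) of 10 immediate early genes in 3 pools of mouse retina, ordered by mean, with points for pools and a bar for the mean. Jund stood highest with a mean of 46.3 RPKM and Fosb lowest with 0.573, and each gene's pools lay close together beside this whole span. Neighbours in the order were separate in 6 of 9 pairs and overlapped in the others.

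The proteins of the Fos and Jun families pair through their leucine zippers into AP-1, the transcription factor of early responses. The highest of the 10 genes was Jund, the Jun member that many cells express without a stimulus, with 48.9, 52 and 38.2 RPKM in pools 1, 2 and 3. Jun, the founding member of its family, had 21.1, 22.2 and 17.4 RPKM. Both were lowest in pool 3. Junb, which is induced quickly and can restrain the activity of Jun, had 11.7, 11.4 and 9.97 RPKM.

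Fos, the classic early response gene and marker of stimulated neurons, had 13.3, 11.8 and 9.33 RPKM. Pool 1 was highest and pool 3 lowest, a ratio of 1.42. Fosb, whose products last longer than Fos after repeated stimulation, had 0.53, 0.62 and 0.57 RPKM, the lowest level of the 10. Fos exceeded Fosb in every pool, 25-fold, 19-fold and 16.4-fold.

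Among the 5 Fos and Jun genes of the 10, Jund took the largest part of the RPKM, with 51.2%, 53.1% and 50.6% in pools 1, 2 and 3. Of the summed RPKM of the 5 genes, Jund took 51.6% ± 1.28 (SD, n = 3), Jun 22.6% ± 0.463, Fos 12.8% ± 1, Junb 12.4% ± 0.784 and Fosb 0.648% ± 0.101. Among the 4 Fos genes, Fos took 85.7% ± 1.79, ahead of Fosl2 (9.75% ± 0.986), Fosb (4.38% ± 0.825) and Fosl1 (0.199% ± 0.0193), the last at 0.03, 0.03 and 0.02 RPKM. The 3 Jun genes together exceeded the 4 Fos genes 5.83-fold ± 0.425. Transcript levels say nothing of how much of each protein was present.

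Egr1 and Nr4a1 encode DNA-binding factors of other classes. Egr1, a zinc finger factor induced by growth factors, synaptic activity and light, had 8.44, 6.16 and 8.05 RPKM, so pool 2 was lowest. Nr4a1, an orphan nuclear receptor that acts without a ligand and follows calcium and cyclic AMP signals, had 19.2, 15.1 and 15.2 RPKM, with pool 1 highest. Nr4a1 took 87.7% ± 0.442 of the RPKM of the 3 Nr4a genes, before Nr4a2 with 10.3% ± 0.872 and Nr4a3 with 1.98% ± 0.447. Egr3 had 0.31, 0.3 and 0.16 RPKM, and Egr2 and Egr4 were not among the rows. Nab1 and Nab2, which bind EGR proteins and repress their targets, had 4.79 ± 0.769 and 6.9 ± 0.982 RPKM.

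Npas4 and Arc are known as genes of neurons, the first a factor switched on by calcium entry and the second a protein that regulates glutamate receptors at synapses. Npas4 had 0.98, 1.15 and 1.06 RPKM, and Arc had 1.08, 0.91 and 0.7. A share of 19.4% of all genes had a lower mean than Npas4, and 17.7% a lower mean than Arc. Fos exceeded Npas4 10.9-fold ± 2.43 and Egr1 exceeded it 7.19-fold ± 1.67. The 2 genes overlapped in level, with Arc above Npas4 in pool 1 and below it in pools 2 and 3.

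Btg2 restrains cell division as a cofactor of transcription and of messenger RNA decay, and is induced by growth factors, p53 and neuronal activity. It had 28.5, 35.7 and 29.5 RPKM, the second highest level of the 10. Its relative Btg1 was lower in every pool, and Btg2 exceeded it 3.82-fold ± 0.41.

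By mean the order was Jund, Btg2, Jun, Nr4a1, Fos, Junb, Egr1, Npas4, Arc and Fosb. For 6 of the 9 pairs of neighbours, every pool of the higher gene lay above every pool of the lower. The other pairs overlapped. Jun and Nr4a1 did so although Jun was higher within each pool. Fos and Junb differed 1.04-fold in their means and changed places in pool 3, and Npas4 and Arc changed places in pool 1. The widest gap between neighbours was between Egr1 and Npas4, 7.1-fold in the means and between 5.36-fold and 8.61-fold within pools.

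For the spread between pools, columns were brought to a common scale and taken as log2(RPKM + 0.1). The added 0.1 makes low genes differ less than they would in log2 RPKM alone. The scaling removed differences that all genes shared, and it changed which pool was highest. As deposited, 5 of the 10 genes were highest in pool 1 and 5 in pool 2, while after scaling 6 were highest in pool 1 (Fos, Jun, Junb, Jund, Nr4a1 and Arc), 1 in pool 2 (Btg2) and 3 in pool 3 (Egr1, Npas4 and Fosb). Jund and Jun were highest in pool 2 before and in pool 1 after. The median over the 10 genes of the log2 difference from each gene's mean was 0.11, -0.04 and -0.03 in pools 1, 2 and 3.

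**Figure D2:**
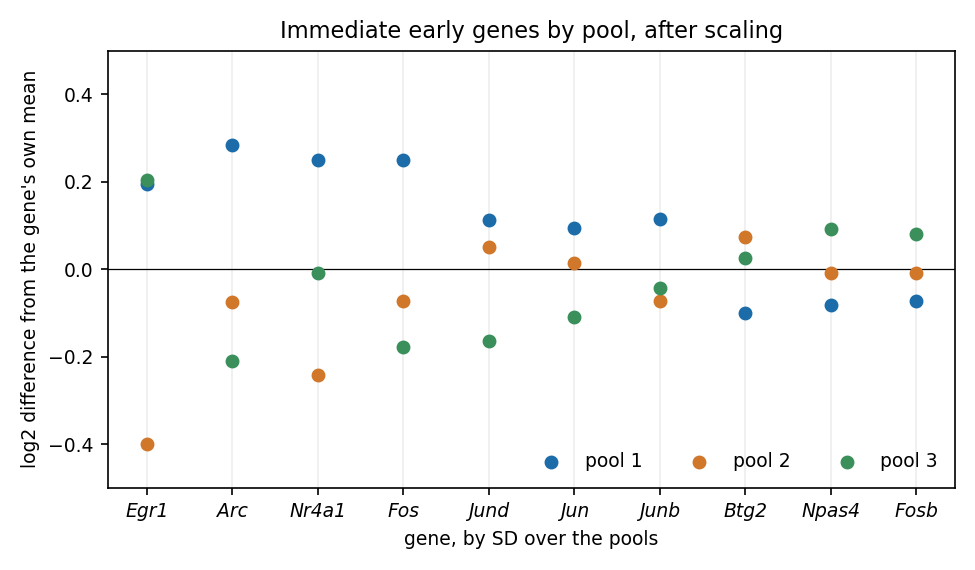
Log2 difference of each pool from the gene's own mean after scaling, with 1 point per pool and genes ordered by their SD. Egr1 has the widest range, from -0.40 in pool 2 to 0.20 in pool 3, and Fosb the narrowest.

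The SD over pools had a median of 0.12 on the log2 scale over the 10 genes, a factor of 1.09. It was also 0.12 over the 8 of them that were tested, 0.15 over all 12562 genes tested and 0.14 without the less certain rows. Against the 500 genes nearest in level, 4 of the 8 immediate early genes tested had an SD under the median. The SD was 0.35 for Egr1, 0.26 for Arc, 0.25 for Nr4a1 and 0.22 for Fos, and 0.15 or less for the other 6. Such values rest on single pools: leaving 1 pool out moved the SD by over 1.5 times for 9 of the 10, all but Nr4a1. With 3 values, uneven spacing is enough to move an SD this far. The share over all genes is not given here, so the count is not read as a trait of the 10. Without pool 1 it was 0.08 for Fos, 0.10 for Arc, 0.03 for Btg2 and 0.02 for Junb, and the median of the 10 was 0.08. Without pool 3 it was 0.04 for Jund, 0.06 for Jun, 0.05 for Npas4 and 0.05 for Fosb. After scaling, the highest pool exceeded the lowest by a ratio between 1.13 (Btg2) and 1.53 (Egr1) in RPKM.

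A gene was called as varying when its variance exceeded the usual variance at its level, by an F test against limma's robust trended prior (Benjamini-Hochberg adjusted p under 0.05). That called 5.44% of the 12562 genes whose mean reached 1 RPKM. Of the 10 genes 8 passed this filter, all but Arc and Fosb, and 0 of the 8 were called, with 0 at an unadjusted p under 0.05. Limma's non-robust trended prior called 0 of all 12562 genes, so its 0 of the 8 (0 at an unadjusted p under 0.05) says nothing of them. Egr1 came nearest, with limma's adjusted p = 0.679 (unadjusted 0.0608), and the adjusted p of the other 7 was 0.993. With no filter, where 4.01% of 15465 genes were called, the adjusted p was 0.984 for Arc and 0.991 for Fosb by the same limma test. A miss does not show that pools were alike. Among the 500 genes nearest in level to Fos the smallest SD that was called was 0.73, and near Egr1 it was 0.71. An SD under these sizes could pass unseen, and a shift in 1 pool is larger than the SD it gives. In a check of the test on simulated data, 70.1% of 67 planted log2 changes of 1 were recovered. The simulated noise of every gene was drawn at the usual SD of its level, whereas real genes differ in their spread. The share recovered therefore does not give the share that the test would find in these pools.

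**Figure D3:**
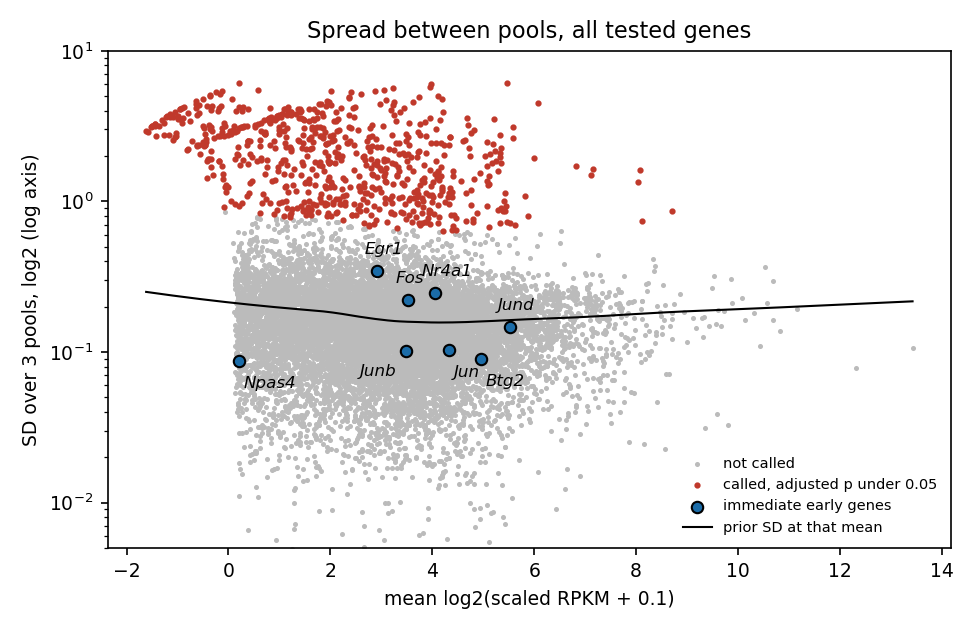
SD over 3 pools of log2(scaled RPKM + 0.1) against the mean for 12562 genes (log axis for the SD), with called genes in red and the prior SD as a line. The 8 immediate early genes past the filter lie within the cloud of genes that were not called, with Egr1 highest at an SD of 0.35.

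Many called genes had symbols that extend another symbol by an ending that starts with a digit, or are such a shorter symbol, and the rows of these genes are less certain. None of the 10 genes had such a symbol. Without these symbols 0.936% of 10474 genes were called by the same limma test, and 0 of the 8. Egr1 then had an unadjusted p of 0.0159 and an adjusted p of 0.522 (limma). Without pool 2 the SD of Egr1 was 0.0062 on the log2 scale, and without pool 1 or pool 3 it was 0.43 or 0.42. Among genes of the same level, 92% of the nearest 500 had a smaller SD than Egr1, 85.2% than Nr4a1, 80.2% than Fos and 13.6% than Npas4.

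Several genes had the pattern of Egr1, the gene of widest range, over the 3 pools. The nearest of 10473 genes were Add2, Plec, Dyrk1b, Zc3h4 and Kdm6b, at distances between 0.011 and 0.020 on the log2 scale. Add2, a cytoskeletal adducin, had 11.7, 8.58 and 11.1 RPKM, and Plec, a cytoskeletal linker, had 5.89, 4.28 and 5.54. A total of 86 genes lay within 0.1. Of the other 7 immediate early genes past the filter the nearest was Nr4a1, at rank 812, and Fos stood at rank 4800. With 3 pools such a likeness is a description of these columns.

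The wider pathway was read from 8 lists with 138 genes, 134 of them among the rows and 119 past the filter. The limma test called 7 of the 119 (5.88%, beside 5.44% of all genes), and all 7 had symbols of the kind described above, among them Dusp1, Zfp36, Zfp36l1, Rgs2, Mapk14 and Dnajb1. Zfp36l1, which promotes decay of early transcripts, had 61, 5.84 and 53.4 RPKM, and was low in pool 2 alone. Without such symbols 2 of 109 were called (1.83%, beside 0.936% of all genes), Vgf and Hmox1. Vgf, a secreted neuropeptide precursor induced by neurotrophins and activity, had 16, 8.9 and 9.27 RPKM, highest in pool 1. Its adjusted p was 0.024 without these symbols and 0.157 with all genes, by limma's test. Vgf belongs to a list of 12 late response genes of neurons. Over that list the median log2 difference from each gene's mean after scaling was -0.07, 0.04 and -0.05 in pools 1, 2 and 3.

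Kinases and factors upstream of the early promoters had medians of 12.2, 11.6 and 11.7 RPKM over 30 genes. Mef2d, a calcium-responsive factor, led with 116 ± 6.15 RPKM, followed by the kinases Map2k1 (49.4 ± 9.05) and Mapk3 (42.1 ± 0.57). Other partners of AP-1 had a median of 2.86 ± 0.41 RPKM over 13 genes, led by Atf4 (109 ± 15.3), a factor of the stress response, and Mafg (29.2 ± 1.3). Another 30 immediate early genes had medians of 7.86, 7.72 and 6.2 RPKM. Sgk1, a kinase induced by serum and glucocorticoids, was highest among them with 62.3, 78.2 and 56.6 RPKM. Of the late response genes of neurons, Scg2, a secretogranin of dense core vesicles, had 123 ± 18.8 RPKM, and Nptx2, a pentraxin of excitatory synapses, 26.6 ± 4.44.

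Genes known to rise with tissue handling, 20 heat shock and stress genes, had medians of 12.5, 13.6 and 9.43 RPKM in pools 1, 2 and 3. Their leading members were Ubb (177 ± 35.5 RPKM), Hsp90ab1 (171 ± 23.8) and Hsp90aa1 (49.2 ± 6.47), a ubiquitin gene and a pair of cytosolic chaperones. After scaling, the median log2 difference from each gene's mean was 0.04, 0.08 and -0.12 for this list. It was 0.11, -0.04 and -0.03 for the 10 immediate early genes and 0.003, 0.005 and -0.0003 over all genes tested. Over 10 microglia markers, which belong to immune cells that also express early genes, it was -0.06, 0.13 and -0.13, and over 8 vascular markers 0.19, -0.09 and -0.10. For lens genes it was -0.03, -0.99 and 1.04, for pigment epithelium genes 0.25, 0.16 and -0.38, for cornea and connective tissue genes 0.26, 0.15 and -0.24, and for muscle genes -0.18, 0.97 and -0.85. The lens list was lowest in pool 2, as were 3 of the 10 immediate early genes (Egr1, Nr4a1 and Junb), while 3 were lowest in pool 1 and 4 in pool 3. The part of these tissues in the spread of the immediate early genes was not tested.

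**Figure D4:**
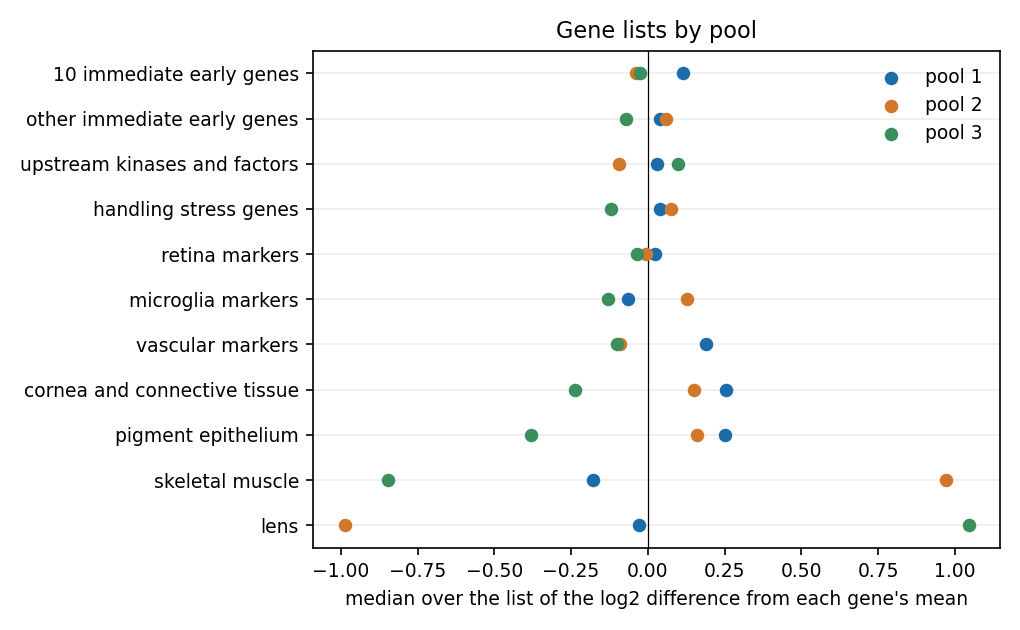
Median over each gene list of the log2 difference from the gene's own mean after scaling, with 1 point per pool. The 10 immediate early genes lie between -0.04 and 0.11, while lens genes lie between -0.99 and 1.04.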

How the data were processed

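RNA sequencing of C57BL6/J retina gave 1 table per biological replicate. Per the labels, 6 samples formed 3 pools of 5 mice with 2 technical replicates each. Sample titles were followed. The source labels pair the samples differently, and if those were right the 3 columns would not be independent. The values deposited by the authors were taken as RPKM, a unit inferred from the values. Per the submitters' processing notes, GSNAP and HTSeq were used with build mm9. Annotation, filters and read depth are, in the sources used here, not given, so no counting error is printed.

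Rows repeated with identical values were kept once. Each column was divided by its trimmed mean ratio to the geometric mean of the pools (trimming, at either end, 30% of the ratios and 5% of the levels), giving factors of 0.983, 1.09 and 0.932. The variance test on log2(RPKM + 0.1) ran in R 4.3.3 with limma 3.58.1 and statmod 1.5.0, over genes whose mean reached 1 RPKM. The test was checked on simulated data. p-values measure the spread between these pools. The 10 genes and all lists were chosen with earlier results of these data known. All 10 genes are named, and from each other list the called genes, the 3 of highest mean and relatives of the 10 could be named. The 5 genes nearest in pattern were taken by Euclidean distance of centred log2 values. The values of 1 called gene are not reported here. Promoter sequences are from RefSeq, build GRCm38.p6, and no coordinates were joined to the deposited values.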

Additional observations from a re-analysis of the deposited data

How the results depend on the processing

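Of the 8 immediate early genes past the filter, 0 were called under 11 other settings of the test and under 1 added after seeing the data (the non-robust trended prior without digit-extended symbols, the symbols described in the report). At most 1 had an unadjusted p under 0.05. The 2 non-robust priors on all genes called no gene at all, so they say nothing of stability, and Arc and Fosb were tested only with no filter and with a filter at a mean of 0.1 RPKM. Over these settings Egr1 had limma's adjusted p between 0.522 and 0.9998. The number of all genes called was 683. It was 0 with the non-robust trended prior (704 at an unadjusted p under 0.05) and 0 with the non-robust single prior (709), 98 without digit-extended symbols, 51 with the added setting, and between 302 (without pool 2) and 480 (without pool 1) with a pool left out, with 434 without pool 3. Of the 119 tested pathway genes 7 were called, and 0 (8 at an unadjusted p under 0.05), 0 (also 8), 2 and 0 (6) under those 4 settings, and between 3 (without pool 2) and 7 with a pool left out. What causes these differences was not tested. The median level of the 10 genes, 11.2 RPKM, was 23.9 after multiplication by transcript length in kb, which by construction undoes the division by length. As deposited, with no scaling, the median SD of the 10 was 0.19 on the log2 scale, against 0.12. No paired analysis was possible because there was 1 group. The unknown depth limits the low genes most, Npas4, Arc and Fosb among them.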

Other observations

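Genes known to rise in the retina after damaging light or injury differed in level. Their median lay under the median mean of 6.26 RPKM over all genes, while the highest of them lay above it. The 12 of them among the rows had medians of 2.27, 2.14 and 3.24 RPKM in pools 1, 2 and 3. Their median SD was 0.18 on the log2 scale, beside 0.15 over all genes tested. These sets are unlike, since all genes tested had a mean of 1 RPKM or more and only 7 of the 12 did. Of the 7 past the filter 0 were called with all genes (1 at an unadjusted p under 0.05) and 1, Hmox1, without digit-extended symbols. Stat3, a factor of the cytokine response, had 14.9, 15.9 and 14.1 RPKM, and Cp, a copper-binding oxidase, had 12.6, 13.6 and 14. Hmox1, the inducible heme oxygenase, had 2.15, 1.83 and 4.41 RPKM, highest in pool 3, with limma's adjusted p = 0.00105 without digit-extended symbols and 0.0593 with all genes.

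Clock genes, some of which answer to light as immediate early genes do, had medians of 18.5, 19 and 18.6 RPKM over 14 genes, and 0 of the 13 past the filter were called by limma's test with the robust prior (5.44% of all genes), with 0 at an unadjusted p under 0.05. The non-robust trended prior called 0 of all genes and says nothing here. Nr1d1, a repressor of the clock whose level swings widely over the day, had 125, 126 and 101 RPKM, and Dbp, an output factor of the clock, had 66.4, 63.8 and 49.2 RPKM. Tef, a relative of Dbp, had 60.9, 60.2 and 56.1 RPKM. After scaling, the median log2 difference from each gene's mean over the 14 genes was 0.06, -0.10 and 0.01 in pools 1, 2 and 3.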
